A study of Mus musculus with 4 samples.

Results

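Monocytes low in MHC class II were 111 of 61371 cells kept from the mouse cortex. A kept cell had at least 500 UMIs (unique molecular identifiers, each standing for 1 captured RNA molecule) and at most 10% of them from mitochondrially encoded genes. A member had at least 3 UMIs summed over Ccr2, Ly6c2, Plac8, Ear2 and Chil3, and fewer than 15 over Cd74, H2-Aa, H2-Ab1 and H2-Eb1, the genes of MHC class II and its invariant chain. It also had fewer than 15 UMIs of the neutrophil genes S100a8 and S100a9, less than 0.15% of UMIs from the microglial gene P2ry12 and less than 1.5% from Apoe. Lastly, it had at most 2 UMIs of the border macrophage genes Lyve1, F13a1, Cd163 and Cbr2, and fewer than 5 of the endothelial genes Cldn5, Flt1 and Ly6c1. All these bounds are measured levels in the same cells, so the levels of these genes, and the contrast of members with other cells, are given as description with no test.

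The question of the series was what changes among CD11b-positive cortical cells when astrocytes make extra Hevin, the secreted product of Sparcl1 that acts on synapses. Wild-type mice had received an adeno-associated virus in the cortex as newborns, carrying Hevin in one group and mCherry, a fluorescent protein, in the controls. In both groups the GfaABC1D promoter, which is active in astrocytes, drove the transgene, so the monocytes themselves were not the cells meant to carry it. Cortices were taken on postnatal day 15 and dissociated with actinomycin D (5 µg/mL), triptolide (10 µM) and anisomycin (27.1 µg/mL), and CD11b-positive cells were held on magnetic columns before PIPseq library preparation, with 2 libraries per group. The labels do not give the strain, the sex or the number of animals in a library, and p-values here measure only the spread between these libraries, which may be technical.

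Monocytes are blood leukocytes made in the bone marrow. In mice, classical monocytes bear much Ly6C and the chemokine receptor CCR2 and enter inflamed tissue, while non-classical monocytes bear little Ly6C, patrol the inner wall of vessels and need the nuclear receptor Nr4a1 to develop. The healthy brain holds few of either, and a CD11b selection collects them together with microglia, because all bear that integrin.

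The 2 Hevin libraries held 55629684 and 52707417 deposited UMIs, and the 2 mCherry libraries 67832685 and 49781430. The lowest total of a deposited barcode was 965 and 2178 UMIs in the Hevin libraries and 2038 and 2993 UMIs in the mCherry libraries, so the libraries did not begin at a common depth. Cells with at least 1.5% of UMIs from Apoe and little P2ry12 made up 38.2% and 31.7% of the Hevin libraries and 0.258% and 0.212% of the mCherry libraries. Haemoglobin RNA stood apart in mCherry replicate 1. In microglia, Hbb-bs had 4.90 and 1.62 CPM (UMIs of a gene scaled to the same total of UMIs in every library and cell class) in the Hevin libraries, and 245 and 11.1 CPM in the mCherry libraries. In the Apoe-high cells above, 7 astrocyte genes summed to 241 and 310 CPM in the Hevin libraries and to 12466 and 12604 CPM in the mCherry libraries. Those cells need not be of the same kind in both groups. Between 1 and 7 barcodes were shared by any pair of libraries, and none of them belonged to a member. Sparcl1, the overexpressed gene, had 45.5 and 0 CPM in members of the Hevin libraries and 44.4 and 36.8 CPM in members of the mCherry libraries. This does not check the labels, since these cells were not the target of the virus. Xist, an RNA that marks female cells, was a further check of the libraries. With Hevin replicate 2 left out, its log2 fold change in members, Hevin over mCherry, was −8.08. This sets Hevin replicate 1 alone against the mCherry libraries and does not compare the groups. The level of Xist in each library is not given here. The libraries may thus differ in sex, which the labels do not give, and the part of sex in the group contrasts was not tested.

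Members numbered 43 in Hevin replicate 1, 20 in Hevin replicate 2, 41 in mCherry replicate 1 and 7 in mCherry replicate 2. Their summed depth was 109899 and 74010 UMIs in the Hevin libraries and 135130 and 27198 UMIs in the mCherry libraries. The median member had 2518 and 3511 UMIs in the Hevin libraries and 3044 and 3742 in the mCherry libraries, close to the medians of all kept cells there (2329, 3494, 3350 and 4037). Every value for mCherry replicate 2 thus rests on 7 cells. Members of the Hevin libraries are called Hevin members below, those of the mCherry libraries mCherry members, and each pair of values gives replicate 1 before replicate 2. The median share of mitochondrially encoded UMIs was 2.98% and 2.28% in Hevin members and 2.76% and 1.97% in mCherry members.

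Ly6c2 and Ly6c1 sit on opposite sides of the rule, and their coding sequences differ little. Ly6c2 lies on chromosome 15 at 75108158 to 75111970 and Ly6c1 at 75044018 to 75048830, both on the minus strand (mm10). Their coding stretches of 396 bases are identical at 387, or 97.7%. The first 120 coding bases, which hold 6 of the 9 differences, are shown 5′ to 3′ with the differing bases in capitals.
Ly6c2: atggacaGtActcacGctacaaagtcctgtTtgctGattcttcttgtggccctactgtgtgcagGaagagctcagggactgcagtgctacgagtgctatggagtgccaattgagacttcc
Ly6c1: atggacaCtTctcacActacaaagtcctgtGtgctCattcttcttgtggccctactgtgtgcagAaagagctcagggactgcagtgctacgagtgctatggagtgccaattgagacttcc
Endothelial cells here were kept cells with at least 5 UMIs over Cldn5, Flt1 and Ly6c1. In them Ly6c1 had 2525 and 3054 CPM in the Hevin libraries and 2264 and 2606 CPM in the mCherry libraries. Ly6c2 there had 83.5 and 92.1 CPM in the Hevin libraries and 67.8 and 78.2 CPM in the mCherry libraries, between 2.99% and 3.31% of Ly6c1 in all 4 libraries. In members the order was the other way round, except in mCherry replicate 2, where both genes were at 0. Endothelial cells were chosen partly by Ly6c1 and members partly by Ly6c2, so these orders are partly set by the choice and are no test. Ly6c2 had 200 and 40.5 CPM in Hevin members and 141 and 0 CPM in mCherry members, whereas Ly6c1, which the rule caps, had 54.6 and 13.5 CPM in Hevin members and 51.8 and 0 CPM in mCherry members. How reads of the pair were divided is not given in the sources used here, so the level of either gene alone is uncertain.

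Of the 5 genes that admit a cell, Plac8 carried most of the weight. Plac8 (ENSMUSG00000029322, chromosome 5, 100553725 to 100572245, minus strand, mm10) encodes a small cysteine-rich protein of myeloid cells. It stood at 2584 and 2405 CPM in Hevin members and at 2620 and 1618 CPM in mCherry members, and in microglia between 9.93 and 18.96 CPM. On its own it reached 3 UMIs in 84 of the 111 members. Ccr2, the receptor for the chemokine CCL2, followed with 437 and 554 CPM in Hevin members and 496 and 221 CPM in mCherry members. Ear2, a secreted ribonuclease whose reads could be divided with its close relative Ear1, had 428 and 459 CPM in Hevin members and 274 and 846 CPM in mCherry members. Chil3, a chitinase-like protein, had 36.4 and 40.5 CPM in Hevin members and 170 and 0 CPM in mCherry members. Its 4 UMIs in Hevin replicate 1 and its 3 in Hevin replicate 2 came from 1 cell each, and its 23 in mCherry replicate 1 from 5 cells. Ly6c2 and Chil3 are not monocyte genes alone, since the 31 neutrophils of the series held 374 and 1979 CPM of Ly6c2 in the Hevin libraries and 454 and 663 CPM in the mCherry libraries. Chil3 there had 789 and 4289 CPM in the Hevin libraries and 959 and 4017 CPM in the mCherry libraries. In members, however, Retnlg, Ngp, Ltf and Ly6g of the neutrophil list were at 0 in every library.

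Most members carried the genes of non-classical monocytes, and few carried Ly6c2. All 12 genes of the non-classical list were detected in the members of every library, with a summed level of 5050 and 4972 CPM in Hevin members and of 3856 and 8751 CPM in mCherry members. The list summed to 270 and 301 CPM in microglia of the Hevin libraries and to 313 and 314 CPM in those of the mCherry libraries. Endothelial cells reached between 2291 and 2655 CPM, of which Pglyrp1 alone made between 2203 and 2554 CPM. By cell, 54 members had Ear2 and no Ly6c2, 13 had Ly6c2 and no Ear2, 4 had both and 40 had neither. A UMI of Ace, Treml4 or Spn was found in 80 of the 111.

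Among the 1225 genes with at least 100 CPM in the members of every library, the 20 with the largest ratio over all other kept cells were led by surface molecules. They were, in order, Cd300e, Treml4, Spn, Ace, Fabp4, Adgre4, Plac8, Ifitm6, Gpr141, Nr4a1, Sirpb1a, Ccdc88c, Fgr, Sirpb1c, Pparg, Cd300ld, Cd244a, Cytip, Nedd9 and Krt80. The one rule gene among them was Plac8, and 7 of the others belong to the non-classical list. That list was chosen with earlier results of these data known.

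The peptidase Ace (angiotensin-converting enzyme; chromosome 11, 105967945 to 105989964, plus strand, mm10) stood at 546 and 486 CPM in Hevin members and at 525 and 1213 CPM in mCherry members. At least 1 UMI of Ace was found in 60.5% and 55.0% of members in the Hevin libraries and in 65.9% and 71.4% in the mCherry libraries. The share in microglia, whose median depth was 2056 and 3309 UMIs in the Hevin libraries and 3258 and 3949 UMIs in the mCherry libraries, lay between 0.224% and 0.250%. Endothelial cells, which also make this enzyme, had at most 41.1 CPM in any library.

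Treml4, a receptor of the TREM family, had 200 and 216 CPM in Hevin members and 215 and 699 CPM in mCherry members. Spn, the sialomucin CD43 by which mouse non-classical monocytes are often recognised, had 237 and 257 CPM in Hevin members and 222 and 662 CPM in mCherry members. Cd300e, an activating receptor, had 109 and 135 CPM in Hevin members and 141 and 404 CPM in mCherry members. For these 3 genes the highest library was mCherry replicate 2, with its 7 cells, and the other libraries lay close together. Adgre4, an adhesion receptor related to F4/80, was more even, with 482 and 622 CPM in Hevin members and 488 and 772 CPM in mCherry members. Nr4a1 had 264 and 378 CPM in Hevin members and 200 and 772 CPM in mCherry members. Nr4a1 is also on the list of genes induced by dissociation. Of 13 such genes with a mean of at least 10 CPM, 9 were higher in members than in all other kept cells without overlap. That was 69.2%, with 0 lower, against 13.3% higher and 14.6% lower over all 8864 genes of that level outside the rule. Fos, among the 9 with Nr4a1, had 45.5 and 94.6 CPM in Hevin members and 126 and 36.8 CPM in mCherry members. The groups overlapped in all genes with values in this paragraph but Cd300e, for which both mCherry libraries lay above both Hevin libraries.

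Of the 17 adhesion and trafficking genes with a mean of at least 10 CPM, 9 were higher in members than in all other kept cells without overlap of any library (52.9%) and 1 was lower (5.88%). Over all 8864 such genes outside the rule, 13.3% were higher and 14.6% lower. Of 6 Fc receptor genes, 2 were higher (Fcgr4 and Fcer1g) and 1 was lower (Fcgr3). Itgal, the alpha subunit of the integrin LFA-1, had 1156 and 838 CPM in Hevin members and 659 and 1177 CPM in mCherry members. Fcgr4, an activating receptor for IgG, had 364 and 459 CPM in Hevin members and 252 and 588 CPM in mCherry members. The transcription factor Pou2f2 had 664 and 500 CPM in Hevin members and 570 and 1324 CPM in mCherry members. Lyz2, the lysozyme of myeloid cells, had 11338 and 12512 CPM in Hevin members and 13631 and 8273 CPM in mCherry members. Microglia had 515 and 428 CPM of Lyz2 in the Hevin libraries and 246 and 202 CPM in the mCherry libraries, far below the members of every library.

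**Figure D1:**
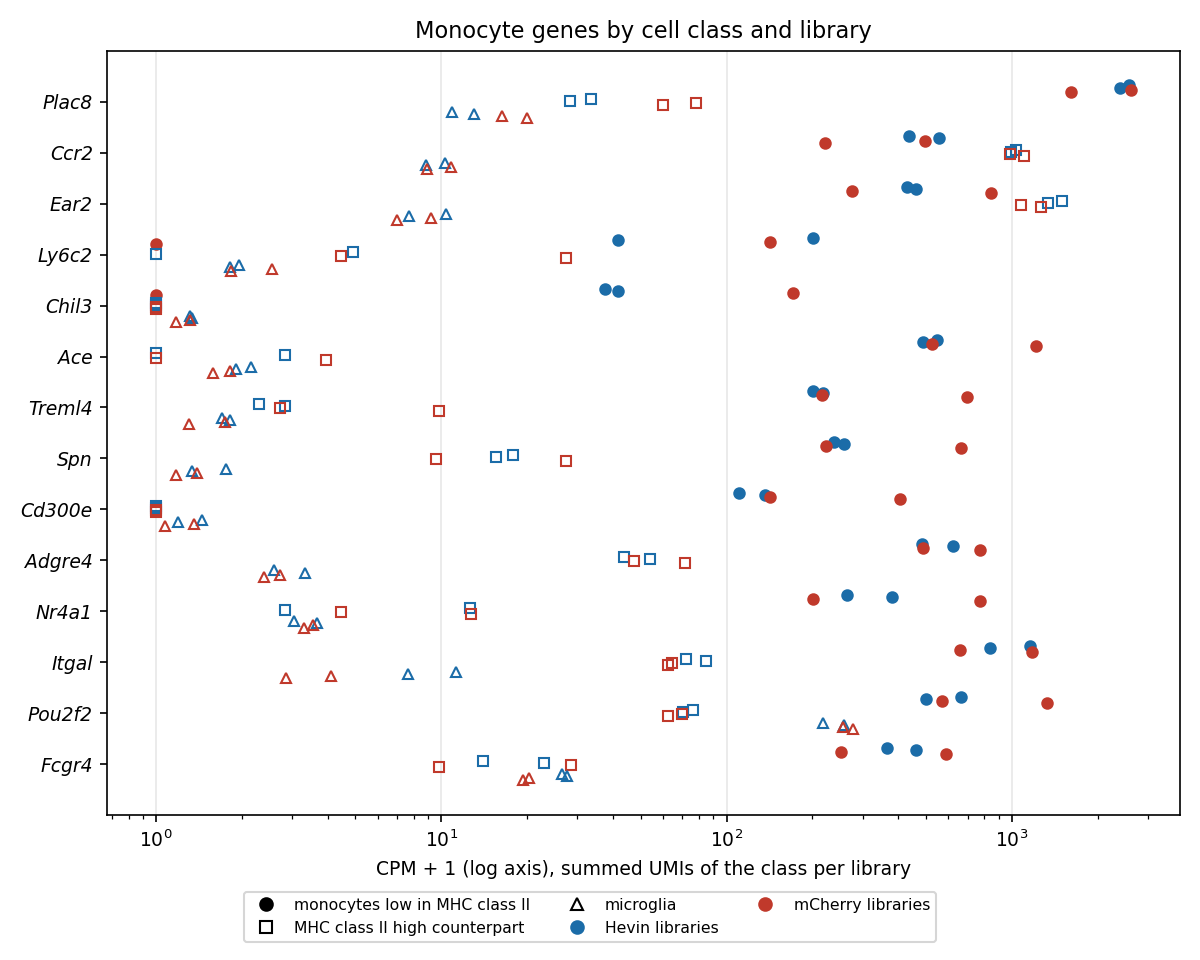
Level of 14 monocyte genes in 3 cell classes, as CPM + 1 on a log axis, with 1 symbol per library, filled for monocytes low in MHC class II. Plac8, Ace, Treml4, Spn, Adgre4 and Itgal of these cells lie to the right of both other classes in all 4 libraries, while Ccr2 and Ear2 lie furthest right in the MHC class II high counterpart.

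The label holds in that monocyte genes lead, but the members are mostly not Ly6C-high cells, and not all carry the same programme. Each member was placed by its UMIs over 9 non-classical genes (Ear2, Ace, Treml4, Nr4a1, Spn, Cd300e, Adgre4, Eno3 and Itgal) and 3 classical genes (Ly6c2, Ccr2 and Chil3). The non-classical sum was the larger in 31 of 43 members of Hevin replicate 1 (72.1%, exact 95% binomial interval 56.3% to 84.7%) and in 14 of 20 of Hevin replicate 2 (70.0%, 45.7% to 88.1%). It was the larger in 29 of 41 of mCherry replicate 1 (70.7%, 54.5% to 83.9%) and in 6 of 7 of mCherry replicate 2 (85.7%, 42.1% to 99.6%). These intervals cover counting error alone. The sums were tied in 3 and 1 Hevin members and in 0 and 0 mCherry members. With ties included, they were within 1 UMI of each other in 6 and 3 Hevin members and in 1 and 1 mCherry members.

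The mean share on the non-classical side was 71.0% ± 1.48 in the Hevin libraries and 78.2% ± 10.6 in the mCherry libraries (SD, n = 2 each), a difference of −7.18 percentage points. Because Ear2 and all 3 classical genes also admit a cell, this is a description with no test. Without mCherry replicate 2 the difference was 0.31 points, and after thinning every cell to 1500 UMIs it was 16.7 points. It was 11.9 points without the endothelial bound, 19.3 without the P2ry12 bound and 18.0 by Plac8 of at least 3 UMIs with the MHC class II and S100 bounds alone, so no direction can be given. Without the P2ry12 bound the share was 62.5% and 47.1% in the Hevin libraries and 50% and 20.9% in the mCherry libraries. Thinning was 1 random draw, with members chosen anew on the thinned counts, and left out 4360 shallower cells of Hevin replicate 1 and none elsewhere. It moved the share to 75.8% of 33 and 63.2% of 19 cells in the Hevin libraries and to 61.0% of 41 and 44.4% of 9 cells in the mCherry libraries.

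**Figure D2:**
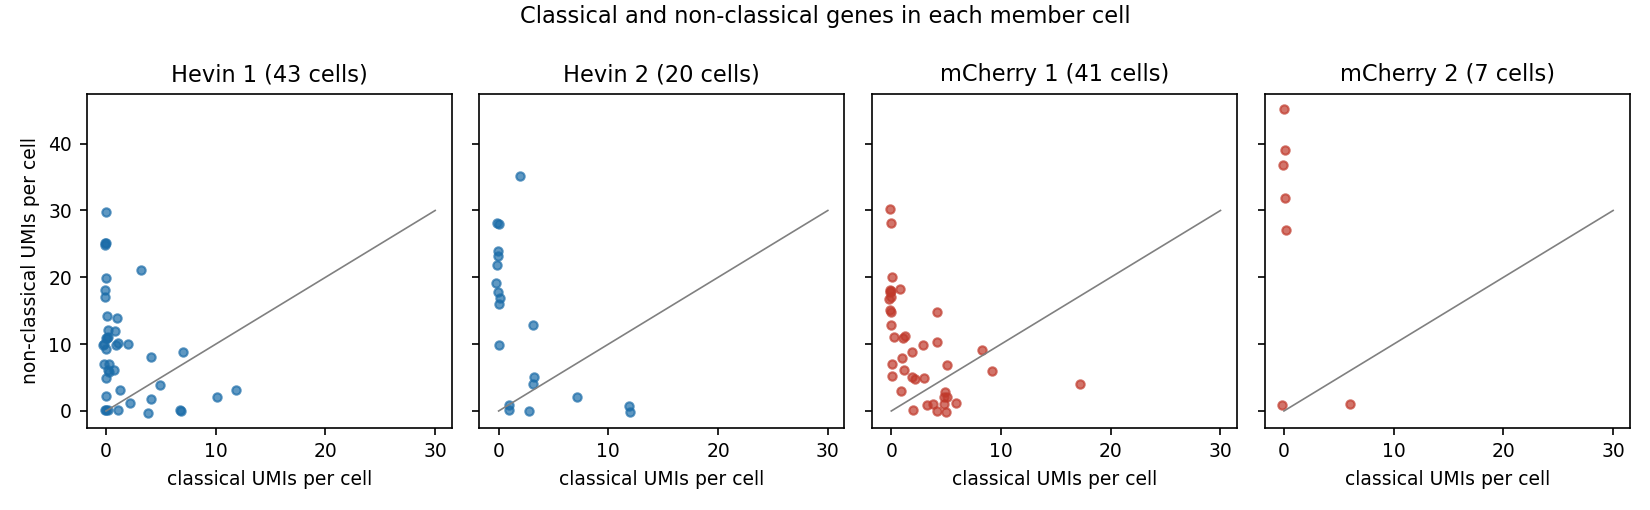
Each point is 1 of the 111 member cells, with the UMIs of 3 classical genes on the horizontal axis and of 9 non-classical genes on the vertical axis, slightly jittered, in a panel per library. Points above the grey line of equal sums are on the non-classical side (31, 14, 29 and 6 cells from left to right), and most of them sit at or near 0 classical UMIs.

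Genes outside the split differed between its sides in the same direction in the 3 libraries with more than 1 cell on each side, again as description. Fcgr4 stood at 445, 751 and 346 CPM on the non-classical side of Hevin replicate 1, Hevin replicate 2 and mCherry replicate 1, against 0, 0 and 46.9 CPM on the classical side. Pparg, a nuclear receptor that responds to fatty acids, had 364, 221 and 173 CPM on the non-classical side and 0, 0 and 23.4 CPM on the classical side. Cd36, a scavenger receptor that takes up lipids, had 472, 663 and 379 CPM on the non-classical side and 151, 122 and 0 CPM on the classical side. Nedd9, a scaffold protein of cell adhesion, had 661, 1127 and 930 CPM on the non-classical side and 113, 122 and 117 CPM on the classical side. The transcription factor Klf2 had 486, 177 and 227 CPM on the non-classical side and 37.7, 40.8 and 0 CPM on the classical side. In all 5 genes each non-classical sum lay above every classical sum. They were picked for this, after their values were seen, from 255 genes higher on the non-classical side without overlap. On the classical side 170 genes were higher without overlap. The number of genes compared is not given here, and few cells stood on the classical side, so neither count is read as a result.

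Lgals1, a galectin, ran the other way, with 135, 221 and 119 CPM on the non-classical side and 603, 1101 and 656 CPM on the classical side of the same libraries. Maf, a transcription factor of macrophages, had 189, 265 and 238 CPM on the non-classical side and 754, 449 and 351 CPM on the classical side. Fn1, the fibronectin gene, had 94.5, 88.4 and 638 CPM on the non-classical side and 1018, 530 and 1007 CPM on the classical side, lower on the non-classical side within each library though not across them. Plac8 was present on both sides, with 2928, 3249 and 2802 CPM on the non-classical side and 2112, 612 and 2226 CPM on the classical side. The sole classical-side cell of mCherry replicate 2 had no Plac8.

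Markers of other cells were not even between the sides. The NK cell list summed to 13.5, 0 and 21.6 CPM on the non-classical side of the same 3 libraries, against 0, 1876 and 1523 CPM on the classical side. The MHC class II cell list, 4 of whose 11 genes the rule caps, summed to 540, 486 and 368 CPM on the non-classical side and to 1471, 1387 and 586 CPM on the classical side. The classical side was 9, 5 and 12 cells there. In each of these libraries it held cells placed there by Ccr2 with no Ly6c2, Chil3 or Plac8, so it need not be classical monocytes alone. Leaving out cells with at least 3 UMIs of the NK and T cell lists, and the 1 member with most UMIs of G2 and M phase genes, left 9, 3 and 10. Lgals1 then had 603, 910 and 574 CPM on the classical side and Fn1 1018, 1183 and 1176 CPM, still above the non-classical side in each library. Maf had 754, 0 and 410 CPM, so its order was turned in Hevin replicate 2. The 5 genes higher on the non-classical side kept separate sides without these cells.

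A few members stood alone by a single programme, and the genes in the next sentences were chosen after their values were seen. All 87 UMIs of the chemokine Ccl5 in Hevin replicate 2 came from 1 cell, which also held 20 UMIs of Gzma, 22 of Nkg7 and 16 of Trbc2, genes of cytotoxic lymphocytes, with 2 of Plac8 and 1 of Lyz2. A cell of mCherry replicate 1 held 15 UMIs of Ccl5, 24 of Gzma and 13 of Nkg7, with 4 of Plac8 and none of Lyz2. Of the 111 members, 3 had at least 3 UMIs of the NK and T cell lists, 0 and 1 in the Hevin libraries and 2 and 0 in the mCherry libraries. The interferon-induced chemokine Cxcl10 had 39 and 0 UMIs in Hevin members and 0 and 46 in mCherry members. Of these, 38 sat in 1 cell of Hevin replicate 1, together with 22 UMIs of Isg15, and 46 in 1 cell of mCherry replicate 2, together with 12 of Isg15. Genes of the G2 and M phases had 11 and 95 UMIs in Hevin members and 27 and 2 in mCherry members, and 92 of the 95 came from 1 cell of 10028 UMIs with 32 UMIs of Lyz2 and none of Plac8. Ace was spread by contrast, with its 60 and 36 UMIs in 26 and 11 Hevin members and its 71 and 33 in 27 and 5 mCherry members.

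The split by MHC class II cut between cells that differ in much more than these genes. The counterpart of the members, defined by the same bounds but with at least 15 UMIs over Cd74, H2-Aa, H2-Ab1 and H2-Eb1, comprised 389 cells, 148 and 98 in the Hevin libraries and 92 and 51 in the mCherry libraries. Few cells lay between, since the MHC class II sum had a median of 1 and a highest value of 13 in members, and a median of 237 and a lowest value of 18 in the counterpart. Plac8 was low in these cells, with 32.4 and 27.4 CPM in the counterpart of the Hevin libraries and 77.3 and 58.6 CPM in that of the mCherry libraries. The counterpart met the monocyte sum mostly with Ccr2 and Ear2. It had 1033 and 990 CPM of Ccr2 in the Hevin libraries and 987 and 1103 CPM in the mCherry libraries, and of Ear2 1497 and 1340 CPM in the Hevin libraries and 1077 and 1267 CPM in the mCherry libraries.

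Of 1225 genes with at least 100 CPM in every library of the members, 413 were higher in members than in the counterpart without overlap of any library (33.7%). Of 1270 with at least 100 CPM in every library of the counterpart, 259 were lower in members (20.4%). Cd300e was at 0 in all 4 counterpart sums. Itgal, given above for members, had 71.2 and 83.9 CPM in the counterpart of the Hevin libraries and 63.5 and 61.6 CPM in that of the mCherry libraries. Pglyrp1, a peptidoglycan-binding protein, had 591 and 595 CPM in Hevin members and 318 and 625 CPM in mCherry members, and at most 18.9 CPM in the counterpart of any library. Rasgrp2, which activates the small GTPase Rap1 upstream of integrins, had 200 and 162 CPM in Hevin members and 178 and 552 CPM in mCherry members, and at most 8.59 CPM in the counterpart.

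Of the 6 genes of MHC class II presentation outside the rule with a mean of at least 10 CPM, 5 were lower in members than in the counterpart without overlap (Ciita, H2-DMa, H2-DMb1, H2-DMb2 and H2-Oa) and 0 were higher. Over all 8594 such genes, 6.87% were lower and 10.1% higher. Of the MHC class II cell list, 4 genes could be counted this way, and Cd209a, Itgax and Zbtb46 were lower. The genes named next were chosen after their values were seen. Cd209a, a lectin of dendritic cells, had 0 and 0 CPM in Hevin members and 7.40 and 0 CPM in mCherry members, but 605 and 667 CPM in the counterpart of the Hevin libraries and 513 and 651 CPM in that of the mCherry libraries. Ciita, the transactivator of MHC class II genes, was at 0 in members of all 4 libraries and at 123 and 142 CPM in the counterpart of the Hevin libraries and 137 and 106 CPM in that of the mCherry libraries. Retnla, a resistin-like secreted protein, had 155 and 108 CPM in Hevin members and 118 and 36.8 CPM in mCherry members, and between 5180 and 6039 CPM in the counterpart. The chemokine Ccl17 had at most 13.5 CPM in members and between 103 and 228 CPM in the counterpart. Because MHC class II set the classes apart, these values are not a test.

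The bounds cut at different places in the distribution of the cells. A monocyte sum of exactly 3 was found in 14 members, and 26 cells with a sum of 2 met every other bound. Of the members, 4 had an MHC class II sum of 10 to 14, and 1 cell was outside by that bound alone with 15 to 19. No member had 10 to 14 UMIs of S100a8 and S100a9, and none had 4 endothelial UMIs, with no cell just beyond either bound. An Apoe share of 1% to 1.5% was found in 5 members, with 6 cells at 1.5% to 2% outside by it alone. For P2ry12, 22 members had 0.1% to 0.15%, and 12 cells with 0.15% to 0.2% were outside by that bound alone.

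Monocytes low in MHC class II made up 0.219% of kept cells in Hevin replicate 1 (exact 95% binomial interval 0.158% to 0.295%) and 0.153% in Hevin replicate 2 (0.0937% to 0.237%). They made up 0.230% in mCherry replicate 1 (0.165% to 0.312%) and 0.0645% in mCherry replicate 2 (0.0259% to 0.133%). The mean was 0.186% ± 0.0462 in the Hevin libraries and 0.147% ± 0.117 in the mCherry libraries (SD, n = 2 each), and the 2 Hevin libraries lay between the 2 mCherry libraries. The log2 fold change was 0.23 ± 0.40 (SE; edgeR's quasi-likelihood test on cell numbers, p adjusted over 8 classes = 0.651; exact two-sided permutation p = 1). It became −0.12 without Hevin replicate 1, −0.27 without mCherry replicate 2, 0.39 without Hevin replicate 2 and 1.55 without mCherry replicate 1.

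This share moved with the bounds. Of the cells that had met the monocyte, MHC class II and S100 bounds, the P2ry12 bound removed 18.4% and 21.1% in the Hevin libraries and 34.1% and 50.7% in the mCherry libraries. Of the cells left after the P2ry12 and Apoe bounds, the border macrophage bound removed 15.5% and 34.7% in the Hevin libraries and 33.7% and 50% in the mCherry libraries. The endothelial bound, applied last, removed 12.2% and 37.5% in the Hevin libraries and 28.1% and 61.1% in the mCherry libraries. Dropping the border macrophage bound alone gave a log2 fold change of −0.024 ± 0.31 (edgeR's quasi-likelihood test, adjusted p = 0.940), and dropping the endothelial bound alone −0.044 ± 0.31 (edgeR's quasi-likelihood test, adjusted p = 0.888). Without the bound on P2ry12, and with all other bounds kept, the share was 0.285% and 0.261% in the Hevin libraries and 0.482% and 0.396% in the mCherry libraries, a log2 fold change of −0.70 ± 0.25 (edgeR's quasi-likelihood test, adjusted p = 0.0230). With Plac8 of at least 3 UMIs and the MHC class II and S100 bounds alone it was −0.69 ± 0.22 (edgeR's quasi-likelihood test, adjusted p = 0.0243). These 4 rules were chosen after seeing the data.

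The cells let in by dropping the P2ry12 bound were not like the members. They numbered 13 and 14 in the Hevin libraries and 45 and 36 in the mCherry libraries. Microglial RNA was high in them, as Tmem119 had 1439 and 1427 CPM in the added Hevin cells and 1886 and 1704 CPM in the added mCherry cells. Plac8 reached 3 UMIs in 8 and 13 of them in the Hevin libraries and in 25 and 34 in the mCherry libraries. Its level was 658 and 1281 CPM in the added Hevin cells and 781 and 1010 CPM in the added mCherry cells, below that of members in every library. No UMI of the 9 non-classical or 3 classical genes was found in 6 and 10 of the added Hevin cells and in 17 and 29 of the added mCherry cells. Whether they are single cells or barcodes holding RNA of more than 1 cell was not tested.

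**Figure D3:**
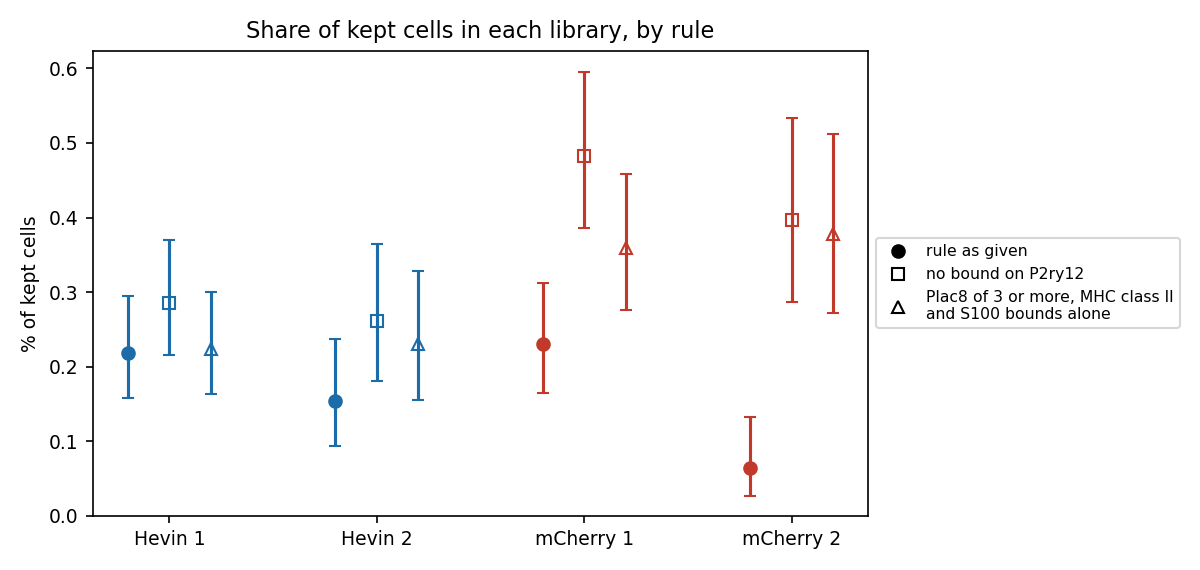
Share of kept cells meeting the rule in each library, in percent, with exact 95% binomial intervals, for the rule as given (filled circles) and for 2 rules chosen after seeing the data. As given, the Hevin libraries (0.219% and 0.153%) lie between the mCherry libraries (0.230% and 0.0645%), whereas without the bound on P2ry12 both mCherry libraries (0.482% and 0.396%) lie above both Hevin libraries (0.285% and 0.261%).

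Between the groups, no gene passed in the members. Of 1969 genes tested on the summed counts, Hevin members had 0 higher and 0 lower (0% called in each direction) by edgeR's quasi-likelihood test at an adjusted p below 0.05. DESeq2 also called 0 and 0. Of the genes tested, 8 belong to the rule, and their values between groups are given without a test. At an unadjusted p below 0.05, 34 genes were higher (1.73%) and 38 lower (1.93%) with edgeR, and 8 and 6 with DESeq2. The libraries of the groups did not overlap for 266 genes that were higher in both Hevin libraries (13.5%) and 364 that were lower (18.5%). Leaving out any library gave calls in both directions, but leaves 1 sum in a group that is assumed to vary like the other group. Without Hevin replicate 1 these calls included Ifitm1, whose 56 UMIs in Hevin replicate 2 all came from 1 cell (log2 fold change 6.66). Without Hevin replicate 2 they included Apoe of the rule and Hbb-bs, which was found in members of mCherry replicate 1 alone (−7.03).

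None of the 41 gene lists had a gene that passed, in either direction, and 6 of them had no gene above the filter on low counts. The interferon response had 6 of 19 measured genes tested, with a median log2 fold change of −0.29, against 0.0093 over all genes tested. Lists of chemokine receptors (4 tested, median 0.066), adhesion and trafficking (10 tested, −0.17), monocyte transcription factors (14 tested, −0.23) and Fc receptors (6 tested, −0.12) were likewise without a call. So were the lysosome list (17 tested, 0.15), the NADPH oxidase (6 tested, 0.076), lipid handling (8 tested, 0.45) and complement (7 tested, 0.0082). The non-classical list had all 12 genes tested, with a median of −0.16, and the classical list 7, with a median of −0.18. The rule uses 1 tested gene each of the chemokine receptor, lipid handling and non-classical lists, and 2 of the classical list.

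Apoe, which the rule caps, is given as values only. It had 6033 and 4283 CPM in Hevin members and 1976 and 846 CPM in mCherry members, a log2 fold change of 1.82. Both Hevin libraries lay above both mCherry libraries. The fold change was 2.79 without mCherry replicate 1, 1.40 without mCherry replicate 2 and 1.01 without the border macrophage bound. Endothelial cells, which are set apart by other genes, had 3918 and 2545 CPM of Apoe in the Hevin libraries and 1066 and 878 CPM in the mCherry libraries (1.79 ± 0.19, edgeR adjusted p = 0.0130). Apoe was thus in the same order in both classes. Microglia, which were capped on Apoe as members were, had 4854 and 3370 CPM in the Hevin libraries and 1565 and 1303 CPM in the mCherry libraries. Their order was the same, but these too are values only. The part of RNA free in the suspension in the members' level was not tested.

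The same held, in the other direction, for microglial RNA. P2ry12 had 446 and 405 CPM in Hevin members and 733 and 993 CPM in mCherry members. Endothelial cells had 371 and 298 CPM of it in the Hevin libraries and 865 and 696 CPM in the mCherry libraries. All 11 microglial markers were detected in the members of every library, with a summed level of 6397 and 2864 CPM in Hevin members and 7186 and 8273 CPM in mCherry members. The sum was 10867 and 9358 CPM in endothelial cells of the Hevin libraries and 12687 and 12207 CPM in those of the mCherry libraries, and between 34328 and 40610 CPM in microglia. The sum was thus lower in members than in endothelial cells in every library. The rule caps P2ry12 in members and not in endothelial cells, so this order is partly set by the rule and is no test. P2ry12 itself was higher in members than in endothelial cells in every library but mCherry replicate 1. Of the list, 9 genes were tested, P2ry12 of the rule among them, and 0 passed (median log2 fold change −0.71).

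**Figure D4:**
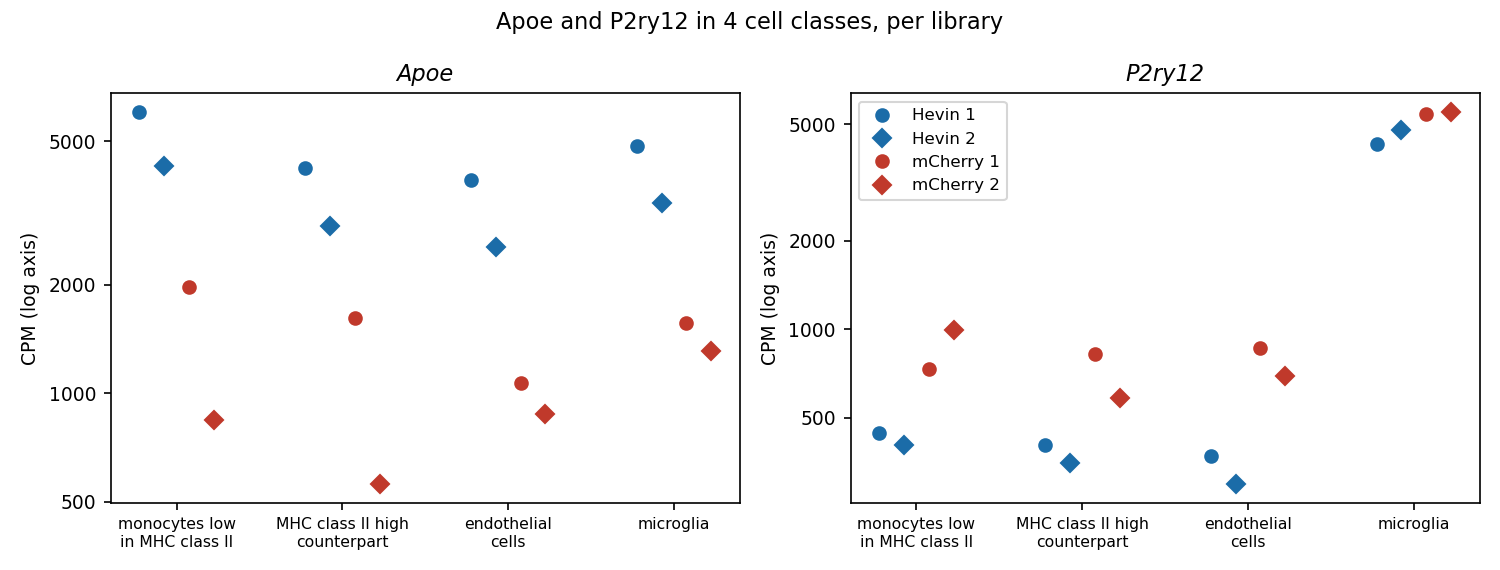
Apoe and P2ry12 in 4 cell classes, in CPM on a log axis, with 1 symbol per library. In monocytes low in MHC class II, Apoe had 6033 and 4283 CPM in the Hevin libraries and 1976 and 846 CPM in the mCherry libraries, and endothelial cells show the same order of groups, as they do for P2ry12 in the opposite direction.

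The genes of smallest p, none of which passed, were of mixed kind. Pf4, a platelet and border macrophage chemokine, had 364 and 311 CPM in Hevin members and 141 and 36.8 CPM in mCherry members (log2 fold change 1.57 ± 0.46, edgeR adjusted p = 0.924). Gstp2, a glutathione transferase, rested on 18 and 12 UMIs in Hevin members and 6 and 1 in mCherry members. Abca1, an exporter of cholesterol, rested on 13 and 18 UMIs in Hevin members and 5 and 2 in mCherry members. Hmgb2, a chromatin protein, had 582 and 1094 CPM in Hevin members and 451 and 221 CPM in mCherry members. Tmem176b and Dab2 completed the higher side with log2 fold changes of 1.33 and 1.45, together with the ribosomal genes Rplp1 and Rps12. Without the border macrophage bound Pf4, Abca1 and Dab2 turned direction, at −0.47, −0.11 and −0.11. Cd74, which the rule caps, had 564 and 622 CPM in Hevin members and 252 and 368 CPM in mCherry members, given with no test.

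Smu1, a splicing factor, had the largest change on the lower side. It was found as 1 and 1 UMIs in Hevin members and as 18 and 4 UMIs in mCherry members, the 18 in 16 cells (log2 fold change −3.44 ± 0.79, edgeR adjusted p = 0.543). Microglia were even, with 50.9 and 50.6 CPM of Smu1 in the Hevin libraries and 53.9 and 56.1 CPM in the mCherry libraries. Cdkn1a, an inhibitor of cyclin-dependent kinases, had 63.7 and 27.0 CPM in Hevin members and 185 and 257 CPM in mCherry members (−1.99 ± 0.56, edgeR adjusted p = 0.924), and its fold change was 0.020 without the endothelial bound. Aim2, a sensor of cytosolic DNA, had 63.7 and 40.5 CPM in Hevin members and 178 and 257 CPM in mCherry members. Nckap1l, a subunit of the WAVE complex that builds actin networks, had 118 and 176 CPM in Hevin members and 340 and 625 CPM in mCherry members. Pitpnc1, Gphn, Tgfbi, Ddx17, Tnfaip2 and BC031181 completed that side, with log2 fold changes between −2.15 and −1.17.

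Ribosomal protein genes, a group chosen because earlier results of these data had shown it higher over all cells, were tested for 79 members and 0 passed in the monocytes. Both Hevin libraries were above both mCherry libraries for 49 of the 79, against 13.5% of all genes tested, and for 0 the order was reversed. Their median log2 fold change was 0.38, against 0.0093 over all genes, and 0.30 with scaling by total counts alone, against −0.067. In microglia it was 0.26 and in endothelial cells 0.21, and the difference between classes was not tested.

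The difference between groups was not the same in members as in microglia for 3 of 13878 genes (0.0216%), by the interaction of group and class in edgeR's quasi-likelihood test with the library as a block. At an unadjusted p below 0.05 there were 199 (1.43%). Microglia here were cells with at least 0.15% of UMIs from P2ry12, fewer than 3 over the 5 monocyte genes and the other bounds of the members. All 3 were abundant in members and scarce in microglia. Cybb, the catalytic subunit of the phagocyte NADPH oxidase (X chromosome, 9435252 to 9487771, minus strand, mm10), stood at 1638 and 1824 CPM in Hevin members and at 1399 and 1728 CPM in mCherry members. Microglia had 74.0 and 45.2 CPM of it in the Hevin libraries and 9.87 and 6.33 CPM in the mCherry libraries. The log2 fold change was 0.23 in members and 2.91 in microglia, a difference of −2.53 ± 0.39 (edgeR adjusted p = 1.06e-06).

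Trps1, a GATA-type repressor of transcription, had 783 and 500 CPM in Hevin members and 1117 and 1066 CPM in mCherry members. Microglia had 35.5 and 24.6 CPM of it in the Hevin libraries and 10.7 and 9.76 CPM in the mCherry libraries, and the effects differed by −2.21 ± 0.38 (edgeR adjusted p = 4.11e-05). Arhgap15, which inactivates Rac, had 983 and 946 CPM in Hevin members and 932 and 993 CPM in mCherry members. Its microglial level was 50.4 and 35.4 CPM in the Hevin libraries and 11.6 and 11.03 CPM in the mCherry libraries, and the difference of effects was −1.78 ± 0.38 (edgeR adjusted p = 0.00998).

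Within either class none of the 3 passed between the groups (edgeR adjusted p in microglia 0.0632, 0.0829 and 0.0611 for Cybb, Trps1 and Arhgap15). In endothelial cells Cybb and Arhgap15 passed, both higher in the Hevin libraries. Cybb had 54.8 and 41.7 CPM in endothelial cells of the Hevin libraries and 8.51 and 15.7 CPM in those of the mCherry libraries (log2 fold change 2.09 ± 0.29, edgeR adjusted p = 0.0230). Arhgap15 had 33.8 and 25.8 CPM in endothelial cells of the Hevin libraries and 5.47 and 6.55 CPM in those of the mCherry libraries (2.36 ± 0.30, edgeR adjusted p = 0.0171). In endothelial cells 15 of 11152 genes passed (0.135%). Without the 5% of members with most UMIs, Arhgap15 no longer passed the interaction (−1.60, edgeR adjusted p = 0.421), while Cybb and Trps1 kept their calls. Without Hevin replicate 1 none of the 3 interaction calls was kept, without Hevin replicate 2 only Cybb, and without mCherry replicate 1 Cybb and Trps1.

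**Figure D5:**
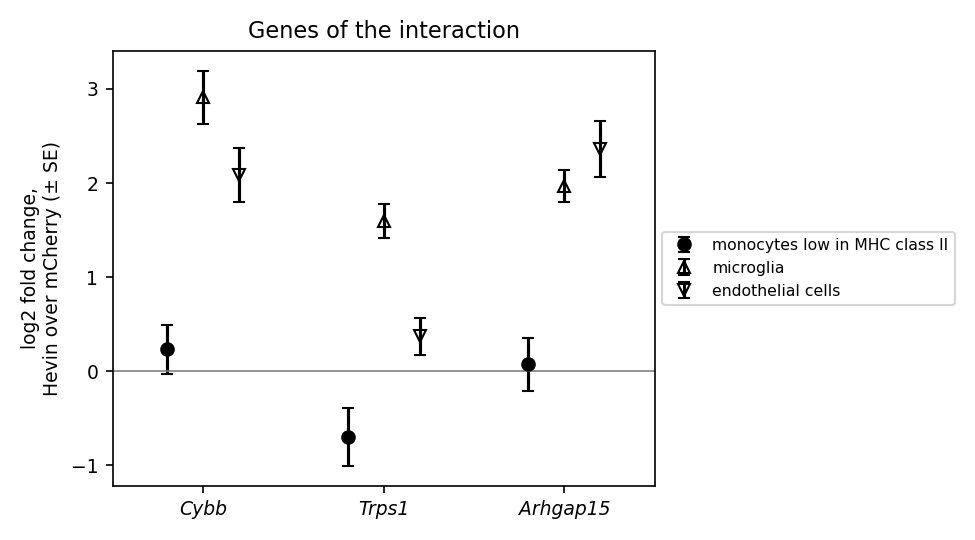
Log2 fold change of Hevin over mCherry libraries, with SE (n = 2 libraries per group), for Cybb, Trps1 and Arhgap15 in monocytes low in MHC class II (filled circles), microglia (triangles pointing up) and endothelial cells (triangles pointing down). The monocytes sit at 0.23, −0.70 and 0.07, and the microglia at 2.91, 1.59 and 1.97.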

How the data were processed

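PIPseq libraries of CD11b-positive cortical cells were analysed, 2 from Hevin and 2 from mCherry mice. The values deposited by the authors are raw UMI counts for each gene in each barcode, and mm10 is the genome named in the submitters' processing notes. Not given in the sources used here are the aligner, the counter, the cell calling and the use of strand. Totals were between 49781430 and 67832685 UMIs per library. The members, the cell classes and the gene lists were chosen with earlier results of these data known. No doublet caller was run.

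Counts of members were summed per library and compared with edgeR 4.0.16 (TMM, filterByExpr, quasi-likelihood test, group as the single term, Benjamini-Hochberg adjustment over all genes tested, threshold 0.05) in R 4.3.3, after the scripts were tested on simulated data. DESeq2 1.42.0, other filters and scalings, other bounds, a replicate block, thinning to 1500 UMIs and leaving out each library were alternatives. Numbers of cells were fitted with edgeR with the log of kept cells as an offset. Exact permutation tests were enumerated in R, and exact (Clopper-Pearson) 95% binomial intervals came from scipy 1.17.1. The intervals cover counting error alone.

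Genes named between groups were to be the 10 strongest in each direction past the threshold, filled up, since none passed, with those of smallest unadjusted p and a mean of at least 50 CPM. Apoe and Cd74 were filled in this way, but as genes of the members' rule they are given without a test, as is the split of the members, for which an exact permutation test had been planned. Gene positions and the Ly6c coding sequences were taken from the GENCODE annotation and transcripts of mm10. Replicates differed by more than sampling noise (chi-square per gene 1.72 for Hevin and 1.77 for mCherry, where sampling noise alone gives about 1). The classical sum that splits the members was planned with 1 further gene, which is not reported here and was left out of the sum.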

Additional observations from a re-analysis of the deposited data

Results flagged for a closer look

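For 3 genes the difference between the groups was not the same in monocytes low in MHC class II as in microglia, by the interaction test in edgeR with the library as a block. Cybb differed by −2.53 on the log2 scale, Trps1 by −2.21 and Arhgap15 by −1.78, each being the effect in monocytes minus that in microglia. In microglia all 3 were scarce and higher in both Hevin libraries than in both mCherry libraries, without passing there. In monocytes Cybb and Arhgap15 had overlapping groups, while both Hevin libraries were below both mCherry libraries for Trps1. Cybb and Arhgap15 were also higher in endothelial cells of the Hevin libraries, at an edgeR adjusted p of 0.0230 and 0.0171. The share of Apoe-high cells, 38.2% and 31.7% in the Hevin libraries and 0.258% and 0.212% in the mCherry libraries, moved with these microglial and endothelial values, and its part in them was not tested. By astrocyte genes, the Apoe-high cells need not be of the same kind in both groups.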

How the results depend on the processing

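The share of monocytes low in MHC class II had a log2 fold change of −0.058 with a monocyte sum of at least 5, −0.024 without the border macrophage bound, −0.044 without the endothelial bound, −0.70 without the P2ry12 bound, −0.49 without the P2ry12 and Apoe bounds, and −0.69 with Plac8 of at least 3 UMIs and the MHC class II and S100 bounds alone. Leaving out a library gave −0.27 to 1.55. The share on the non-classical side differed by 16.7 points after thinning, 11.9 without the endothelial bound, 19.3 without the P2ry12 bound, 15.4 without the P2ry12 and Apoe bounds, 18.0 by Plac8 alone, and by −14.7 to 0.31 points with a library left out. Genes called higher and lower numbered 5 and 1 both without a filter (13091 tested) and with a mean of at least 10 CPM (8394 tested). They numbered 1 and 1 without the P2ry12 bound, 14 and 22 without the P2ry12 and Apoe bounds, and 1 and 0 by Plac8 alone. Apoe, which the rule caps, was among the higher calls in all of these. Of the 5, Ifitm1 and Ccl5 drew most of their UMIs from 1 cell each, in Hevin replicate 2. The 1 lower call beside them was Hbb-bs, found in members of mCherry replicate 1 alone. With a library left out there were 1 to 17 higher and 2 to 6 lower. The interaction count was 26 without the Apoe bound, which was dropped for members and microglia alike. It was 5 without members holding 3 or more UMIs of NK, T and B cell markers. It also moved with a library left out. The causes were not tested. Of 350 values of the named genes outside the rule under alternatives, 338 kept their direction and side of the threshold, 6 newly passed, and 6 turned direction. These were Tgfbi, at 0.18 without the P2ry12 and Apoe bounds, Ddx17, at 0.10 by Plac8 alone, Pf4, Abca1 and Dab2, at −0.47, −0.11 and −0.11 without the border macrophage bound, and Cdkn1a, at 0.020 without the endothelial bound. Of 36 such values of the 3 interaction genes, 29 kept both and 7 no longer passed. Beside those with a library left out, this was Arhgap15 without the 5% of members with most UMIs (−1.60, edgeR adjusted p = 0.421). Rules without the P2ry12, border macrophage or endothelial bound, the one by Plac8 alone and the one without NK and T cell markers were chosen after seeing the data.

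With the replicate block the share changed by 0.26 (edgeR adjusted p = 0.619) and 0 genes were called in either direction, so it changed no call. The labels give no shared source for equal numbers, and deviations of same-numbered libraries correlated at r = −0.128 over 1822 genes. The crossed pairing, added after seeing the data, also gave 0 and 0 calls. Depth limits mCherry replicate 2 most, with 7 members and 27198 UMIs.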
